A study of Mus musculus with 8 samples.

Results

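The genes described here encode the gamma-secretase complex, and were followed in tubuloids, which are small 3D tubules and spheroids cultured in Matrigel from mouse kidney fragments. The set held 6 of the 24063 genes in the count tables, namely Psen2, Ncstn, Psenen, Aph1a, Aph1b and Aph1c, which came as 8 of 33068 transcripts. Psen2 was chosen by its counts in these same libraries, which were called higher after doxycycline, and the other 5 members were chosen because their products belong to the same complex. The change of Psen2 between treatments is therefore given as a description without a test, whereas the 5 other members were tested within a fit over all genes.

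All 8 libraries came from one genotype, Pkd2 fl/fl Pax8rtTA TetOCre mTmG, and from kidneys of postnatal day 7 to 10 by the sample labels (the study's methods give a younger range). In these mice the Pax8 promoter drives a doxycycline-dependent transactivator in renal epithelium, the transactivator switches on Cre, and Cre removes the floxed part of Pkd2 and turns a membrane reporter from red to green. The 4 DOX libraries were from cultures given doxycycline from day 3 for 3 days, and the 4 DMSO libraries from cultures given the vehicle over the same days, with RNA taken on day 7. The control cultures carried the same floxed alleles and transgenes but received no inducer, no library with doxycycline but without Cre was among the 8, and non-epithelial cells of the culture do not recombine.

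Gamma-secretase is a protease that cuts its substrates inside the membrane. A presenilin is the catalytic subunit, with a pair of aspartates in the active site. Nicastrin, encoded by Ncstn, is a large glycoprotein that receives the substrate. An APH-1 protein scaffolds the early assembly with nicastrin, and PEN-2, encoded by Psenen, joins late and triggers the cut by which presenilin becomes active. The complex cleaves the stubs that sheddases leave behind, among them those of Notch receptors, whose freed intracellular part enters the nucleus, and of the amyloid precursor protein. In the developing kidney, Notch signalling through this cleavage is needed for nephron segments to form. Mice have 3 APH-1 genes, of which Aph1b and Aph1c are close copies of each other.

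The promoter sequences of the members around which the results turn are shown first, as RefSeq start sites on the mouse build GRCm38.p6 place them, from 250 bases before to 50 bases after each start. Psen2 (chr1:180227004-180263467, minus strand) has 2 such windows, a distal one at chr1:180256251-180256550 for transcript NM_001128605 and a proximal one at chr1:180245901-180246200 for NM_011183. They are shown because the count tables list Psen2 under exactly these 2 transcripts. Capitals mark each GC box, GGGCGG on either strand, the element that SP-family factors are known to bind.
Psen2 distal: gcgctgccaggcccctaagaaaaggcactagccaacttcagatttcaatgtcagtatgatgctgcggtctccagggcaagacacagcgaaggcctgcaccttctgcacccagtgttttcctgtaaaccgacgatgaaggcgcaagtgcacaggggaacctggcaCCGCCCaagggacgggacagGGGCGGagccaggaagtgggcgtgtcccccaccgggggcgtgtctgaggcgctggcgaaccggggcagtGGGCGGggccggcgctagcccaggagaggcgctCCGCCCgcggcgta
Psen2 proximal: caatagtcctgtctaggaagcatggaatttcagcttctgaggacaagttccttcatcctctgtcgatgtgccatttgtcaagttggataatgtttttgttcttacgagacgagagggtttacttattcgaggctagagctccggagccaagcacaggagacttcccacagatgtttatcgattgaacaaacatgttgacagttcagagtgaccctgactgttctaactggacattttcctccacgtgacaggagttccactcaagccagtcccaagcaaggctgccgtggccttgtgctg

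The distal Psen2 window held 4 GC boxes and was 65.7% G or C, higher than 83.0% of all promoter windows. The proximal window held no GC box and was 47.7% G or C, with the median of all windows at 52.7%. The proximal window also held 1 match to GTGGGAA, the core letters read by RBPJ, the DNA-binding partner of cleaved Notch, on the reverse strand. Of 32851 promoter windows of the same length, 35.7% held a GC box and 6.38% held the RBPJ core letters on either strand. A match describes letters and not a bound site.

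Aph1b (chr9:66775202-66797345) and Aph1c (chr9:66814991-66834706) lie next to each other on the minus strand, and their windows, at chr9:66795374-66795673 and chr9:66834657-66834956, are shown as the members most alike in sequence.
Aph1b: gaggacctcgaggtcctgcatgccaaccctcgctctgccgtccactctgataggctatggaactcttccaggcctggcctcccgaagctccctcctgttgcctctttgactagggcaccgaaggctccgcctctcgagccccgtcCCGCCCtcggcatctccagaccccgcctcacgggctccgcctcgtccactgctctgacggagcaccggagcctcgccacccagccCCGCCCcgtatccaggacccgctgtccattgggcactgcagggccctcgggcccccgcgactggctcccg
Aph1c: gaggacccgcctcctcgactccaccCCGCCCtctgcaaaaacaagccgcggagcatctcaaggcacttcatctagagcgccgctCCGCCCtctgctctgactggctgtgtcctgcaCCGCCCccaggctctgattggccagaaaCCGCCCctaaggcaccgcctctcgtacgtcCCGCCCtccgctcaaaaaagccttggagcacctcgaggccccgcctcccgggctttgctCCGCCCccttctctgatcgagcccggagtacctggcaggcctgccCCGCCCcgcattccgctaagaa

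The Aph1b window held 2 GC boxes and the Aph1c window 7, and the windows were identical at 72.9% of 221 aligned bases. Over all 8 windows found for the 6 members, 4 held a GC box, 4 held the letters CCAAT (37.4% of all windows) and none held TATAAA (13.6% of all windows). The RBPJ core letters were in 2 of the 8, the proximal Psen2 window and that of Aph1a. The grainyhead letters AACCNGTT were in none of the 8 windows and in 2.09% of all windows.

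The libraries held 63922677 to 102716313 counts each, summed over transcripts. The libraries DMSO 20 and DOX 19 stood apart, with 13243 and 13599 genes detected against 17054 to 17903 in the other 6. The targeted gene Pkd2 had 4813 to 7538 normalised counts in DMSO and 4136 to 5952 in DOX. The groups overlapped, at -0.31 ± 0.21 (log2 fold change ± SE) with a DESeq2 adjusted p of 0.999, over counts that span the whole transcript and not only the floxed part. By western blot the study reported less of the Pkd2 protein, polycystin-2, in tubuloids after doxycycline, with some protein still detectable. Of 8 renal epithelial markers none was at 0 in any library, with a summed level of 661 to 2869 TPM in DMSO and 843 to 1818 TPM in DOX. The collecting duct marker Aqp2 was at 0 in 7 of 8 libraries, whereas Gata3 and Hoxb7 were present in all. Stromal markers summed to 350 to 3610 TPM in DMSO and 770 to 1281 TPM in DOX. The sums were 1204 TPM in DMSO 20 and 770 TPM in DOX 19. Of the 8 stromal markers, Dcn was at 0 in DMSO 20 and Lum at 0 in DOX 19, and no other was at 0 in any library. In such bulk RNA, fewer cells of a type and less RNA per cell cannot be told apart. Nothing in the labels ties the libraries to separate animals, so p-values measure the spread between these 8 samples. The flow cell lane of each library is not in the labels, so a lane effect could not be examined.

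Levels between genes were compared as TPM, read counts scaled by transcript length and library and summed over the transcripts of a gene. Nicastrin RNA was the most abundant of the set, with 121 ± 30.03 TPM (SD, n = 8). Psenen followed with 80.7 ± 13.3 TPM, then Psen2 with 47.8 ± 30.4, Aph1a with 17.2 ± 8.85, Aph1b with 5.63 ± 3.39 and Aph1c with 0.740 ± 0.385 TPM. The ranges of neighbours in this order overlapped over the 8 libraries. Within libraries, Psen2 was above Aph1a and Aph1b above Aph1c in 8 of 8. Ncstn was above Psenen in 7, the exception being DMSO 15, and Psenen above Psen2 and Aph1a above Aph1b in 7, the exception being DOX 19 for both. Reads shared by isoforms appear to be counted once for each isoform, which raises the sums of Psen2 and Aph1a. With the highest-counted transcript in place of the sum, Psen2 was at 24.0 and Aph1a at 8.34 TPM, the order of the means stayed the same, and Psenen was above Psen2 in 8 of 8 libraries.

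**Figure D1:**
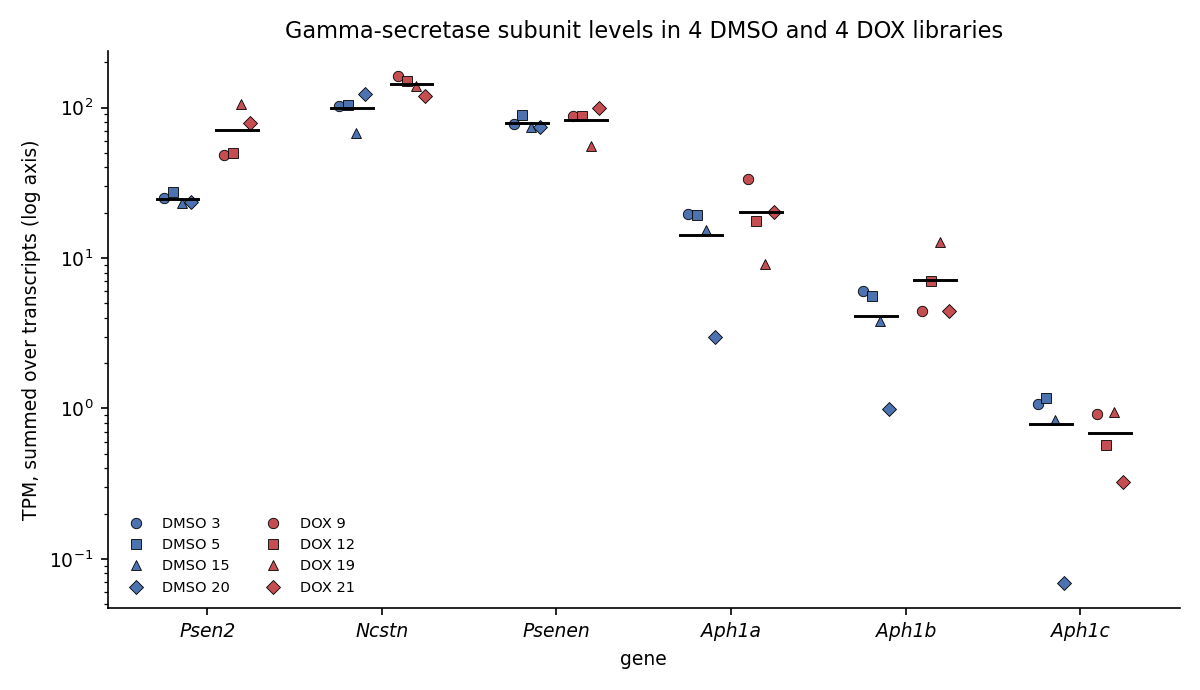
TPM of the 6 subunit genes (log axis) in each of 4 DMSO and 4 DOX libraries, with a bar at the group mean and 1 marker shape per library. Psen2 was at 23.2 to 27.5 in DMSO and 48.5 to 106 in DOX, and DMSO 20 was the lowest library for Aph1a, Aph1b and Aph1c.

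Psen2, the presenilin member, was at 25.2, 27.5, 23.2 and 23.4 TPM in the libraries DMSO 3, 5, 15 and 20. It was at 48.5, 49.6, 106 and 78.4 TPM in DOX 9, 12, 19 and 21. The DMSO libraries lay close together, every DOX library was above them, and DOX 19 and DOX 21 were the highest. Normalised counts, which are counts divided by a size factor per library and serve to compare 1 gene between libraries, went from 2111 ± 233 (SD, n = 4) to 5782 ± 2591 (SD, n = 4). This was a log2 difference of 1.45 ± 0.35 (SE) or 2.74-fold. Set against the DMSO mean, DOX 9 was at 1.92 times, DOX 12 at 1.63, DOX 21 at 3.10 and DOX 19 at 4.31 times. Psen2 was 1 of the 25 genes that DESeq2 called among 17011 with an adjusted p (0.147%, with an adjusted p up to 0.05 and a fold of 1.5 or more in either direction), and 1 of 14 called higher (0.0823%), which is what put it in the set. Without DOX 19 the log2 difference was 1.16, and without both DMSO 20 and DOX 19 it was 1.11. The call was lost in both of these fits. It was also lost without DMSO 3 (log2 difference 1.52), DMSO 5 (1.44), DMSO 20 (1.39) or DOX 21 (1.39), with edgeR (1.46) and with limma-voom (1.32).

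The 2 Psen2 transcripts start at positions 180256300 and 180245950 of chromosome 1 and share most of their length. Of 1923 stretches of 75 bases (the read length) in NM_001128605, 1843 were also in NM_011183, leaving 80 that were specific to the first and 87 to the second. Their counts differed by 0 to 28 reads per library, at most 0.691%, and each held 49.7% to 50.3% of the Psen2 TPM in every library. The log2 difference between treatments was 1.44 for both when transcripts were fitted as separate features. With most reads common to both, these tables do not show which start site was in use. None of the 75-base stretches of either transcript was found in the transcripts of another gene.

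Some markers of other cell types also differed between libraries. The summed level of 7 urothelial and squamous markers was 2.00 to 12.5 TPM in the DMSO libraries, 2.92 in DOX 9 and 6.79 in DOX 12, but 24.8 in DOX 21 and 118 in DOX 19, the libraries in which Psen2 was highest. Krt14, a keratin of basal and squamous epithelium, accounted for most of this, with 97.2 TPM in DOX 19, 15.0 in DOX 21 and 0.478 to 5.41 in the other 6. Trp63, a transcription factor of basal epithelium, differed from this, with its highest value of 9.56 TPM in DMSO 5 and 3.88 and 2.38 TPM in DOX 19 and DOX 21. The urothelial defining genes Upk1a, Upk1b, Upk2 and Upk3a were all at 0 in DOX 19. The 6 leukocyte markers summed to 15.9 to 29.4 TPM in DMSO and 0.00680 to 12.2 TPM in DOX, with the macrophage gene Emr1 at 0 in 7 libraries. Taken singly, each of the 6 overlapped between the groups, and the DMSO sums were led by Ptprc in DMSO 5, Cd68 in DMSO 3 and DMSO 20 and Lyz2 in DMSO 15. In DOX 9 and DOX 12 the summed urothelial and squamous markers lay within the DMSO range, and Psen2 was at 48.5 and 49.6 TPM. The part of other cell types in the Psen2 level was not tested.

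The genes on either side of Psen2 overlapped between the groups. On the lower-coordinate side Coq8a, listed as Adck3 and encoding a kinase-like protein of coenzyme Q synthesis, lies 30984 bases away and had 61.5 to 1066 normalised counts in DMSO and 11.3 to 1380 in DOX. On the other side Gm5069, a predicted gene 63502 bases away, had 21.1 to 71.6 normalised counts in DMSO and 39.5 to 107 in DOX. Their log2 fold changes were 0.37 ± 1.10 and 0.83 ± 0.61 (SE), each with a DESeq2 adjusted p of 0.999.

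Ncstn (chr1:172066013-172082789, minus strand) was the member beside Psen2 in which the groups did not overlap in normalised counts. It had 13746, 10925, 9225 and 13779 normalised counts in DMSO 3, 5, 15 and 20, and 19306, 14761, 17059 and 14269 in DOX 9, 12, 19 and 21. Every DOX library was above every DMSO library, by a small margin between DMSO 20 and DOX 21. On the TPM scale the groups overlapped, since DMSO 20 had 124 TPM and DOX 21 had 120. This was a log2 fold change of 0.46 ± 0.21 (SE), from 11919 ± 2239 to 16349 ± 2316 normalised counts (SD, n = 4 each). The unadjusted DESeq2 p was 0.032, where 4.67% of all genes tested were under 0.05, and the adjusted p was 0.868, so the gene did not pass. A stretch of 195 exonic bases overlaps Copa on the other strand, and 4.32% of the 75-base stretches of Ncstn occur in Copa transcripts.

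Psenen (chr7:30561865-30563627, minus strand) was the steadiest member. It was at 77.9, 89.4, 74.2 and 74.1 TPM in DMSO 3, 5, 15 and 20, and at 88.1, 87.6, 55.4 and 99.0 TPM in DOX 9, 12, 19 and 21. The groups overlapped, and the highest and the lowest of the 8 libraries were both DOX libraries. Its highest library was 1.79 times its lowest, whereas the same ratio was 2.38 for Ncstn, 4.59 for Psen2, 11.1 for Aph1a, 12.8 for Aph1b and 17.0 for Aph1c. The log2 fold change of -0.02 ± 0.23 (SE) did not pass (DESeq2 adjusted p = 0.999) and had a 95% interval from -0.48 to 0.43. The sign turned positive when DMSO 3, DMSO 15, DOX 12 or DOX 19 was left out. A processed pseudogene, Gm12396, holds 36.6% of the 75-base stretches of Psenen, so part of its count is uncertain.

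Aph1a (chr3:95893921-95898592, plus strand), the main APH-1 gene in most tissues, was at 19.5, 19.2, 15.3 and 3.00 TPM in DMSO 3, 5, 15 and 20. It was at 33.3, 17.7, 9.07 and 20.2 TPM in DOX 9, 12, 19 and 21. The groups overlapped, DOX 9 was the highest library and DMSO 20 the lowest. DMSO 20 was also the lowest library for Aph1b and Aph1c and the one with the fewest genes detected, and the part of this in the Aph1 values was not tested. Its log2 fold change of 0.39 ± 0.64 (SE) did not pass (DESeq2 adjusted p = 0.999), and it was -0.010 without DOX 9. Its counts share the most sequence with other genes, since 44.9% and 61.8% of the 75-base stretches of its 2 transcripts also occur in other genes, among them Gm15429 and Jagn1. Car14 overlaps 445 of its exonic bases on the other strand, and reads from the 2 strands cannot be told apart.

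Aph1b was at 6.02, 5.60, 3.79 and 0.993 TPM in DMSO 3, 5, 15 and 20, and at 4.47, 7.01, 12.8 and 4.42 TPM in DOX 9, 12, 19 and 21. The groups overlapped, with DOX 19 high and DMSO 20 low. A log2 fold change of 0.71 ± 0.63 (SE) did not pass (DESeq2 adjusted p = 0.999). It was 0.37 without DMSO 20, 0.21 without DOX 19 and -0.11 without both DMSO 20 and DOX 19.

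Aph1c was at 1.07, 1.18, 0.831 and 0.0696 TPM in DMSO 3, 5, 15 and 20, and at 0.918, 0.575, 0.946 and 0.326 TPM in DOX 9, 12, 19 and 21. The groups overlapped, and DMSO 20 held 11 reads, with an exact Poisson interval of 5.49 to 19.7 that covers counting error only. For this gene DESeq2 gave -0.28 ± 0.82 (log2 fold change ± SE), with an adjusted p of 0.999. The log2 value was -0.67 without DMSO 20 and -0.87 without DMSO 20 and DOX 19. With 1 library left out it ran from -0.67 to -0.03 (without DMSO 3), and with limma-voom it was 0.059. Aph1b and Aph1c share 657 stretches of 75 bases, 13.6% of Aph1b and 12.8% of Aph1c, and their transcripts were identical at 93.1% of 3132 aligned bases. Reads from these stretches cannot be assigned to 1 of the 2 genes by sequence, and how they were counted is not given in the sources used here.

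The shares of Aph1a and Aph1b varied less among the 4 DMSO libraries than among the 4 DOX libraries. In DMSO, Aph1a made up 74.5% ± 1.596, Aph1b 21.9% ± 2.27 and Aph1c 3.61% ± 1.29 of the summed APH-1 TPM (SD, n = 4). DMSO 20 held these proportions for Aph1a and Aph1b, with 73.9% and 24.4%, but Aph1c took 1.71% there against 4.04% to 4.54% in the others, and the summed APH-1 level of DMSO 20 was 4.07 TPM against 19.9 to 26.6 in the other DMSO libraries. In DOX, Aph1a ranged from 39.8% to 86.1% and Aph1b from 11.6% to 56.0%. DOX 19 was the library in which Aph1b exceeded Aph1a, with 56.0% against 39.8%. The shares depend on how isoforms are summed, since the highest-counted Aph1a transcript gave 58.8% ± 2.01 in DMSO.

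**Figure D2:**
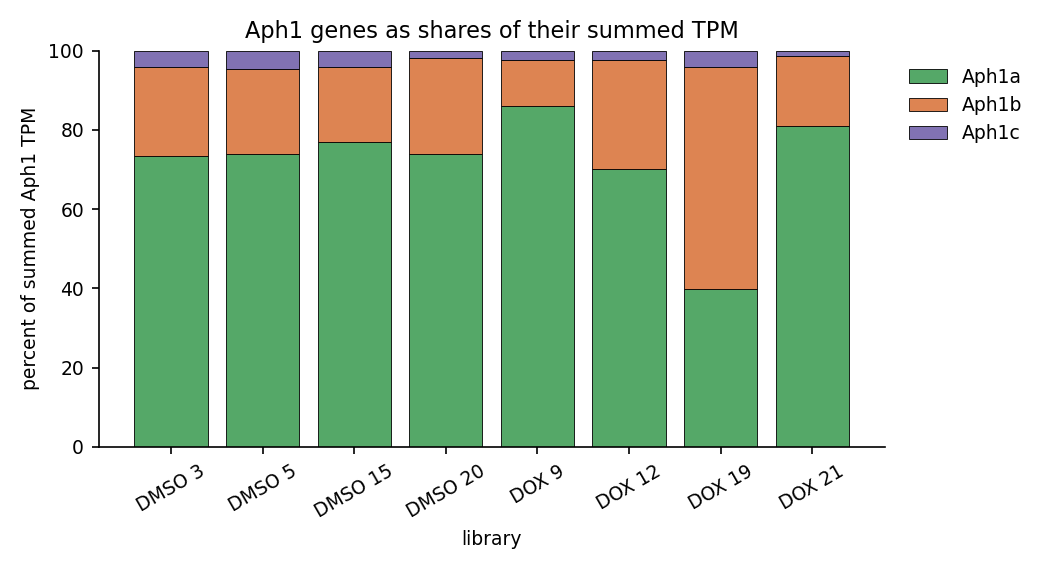
Share of the summed APH-1 TPM (percent) taken by Aph1a, Aph1b and Aph1c in each library. Aph1a took 73.3% to 76.8% in the 4 DMSO libraries and 39.8% in DOX 19, where Aph1b took 56.0%.

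Across the set, DESeq2 called Psen2, as its selection fixed, and 0 of the 5 others, beside 0.147% of all genes. Of the 5, 1 (Ncstn) had an unadjusted DESeq2 p under 0.05, as did 4.67% of all genes tested. The quasi-likelihood test of edgeR and limma-voom each called 0 of the 6 and 0 genes in all. Psen2 is left out of the counts that follow, since its values chose it. Among the 5 others, 1 (Ncstn) had an unadjusted p under 0.05 by edgeR and by limma-voom, where 3.06% and 3.07% of all genes did. Every DOX library was above every DMSO library for 1 of the 5, again Ncstn, and for 2.07% of the 13248 genes with a mean of at least 100 normalised counts. Positive fold changes were found in 3 of the 5 and in 44.5% of all genes tested, and the median log2 fold change of the 5 was 0.39, beside -0.07 over all genes tested.

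**Figure D3:**
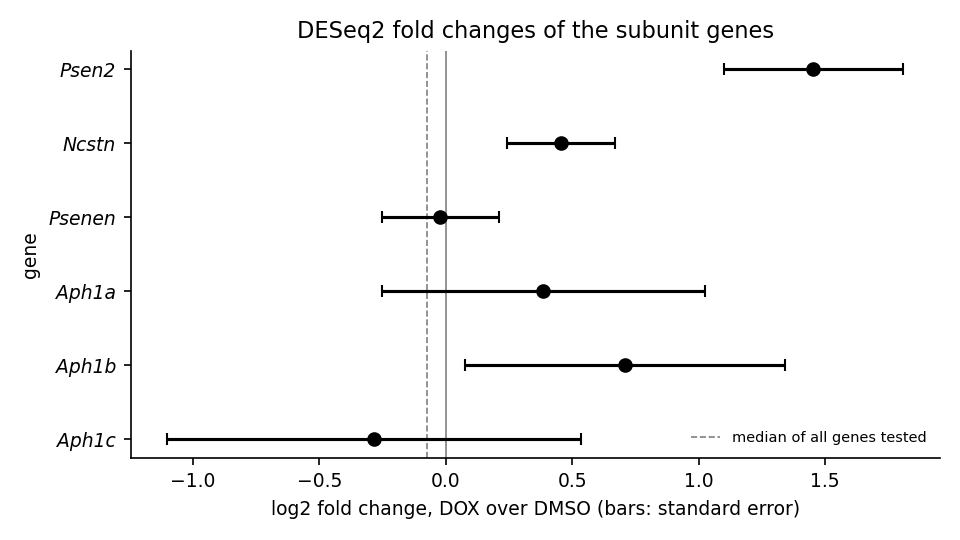
Log2 fold change of each subunit gene, DOX over DMSO, from DESeq2, with bars for the standard error and a dashed line at the median of all genes tested (-0.07). Psen2 was at 1.45 and Ncstn at 0.46, and the bars of Psenen, Aph1a and Aph1c crossed 0.

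The members differed in their ratios to one another within libraries. For each Psen2 TPM there were 3.09 to 3.26 Psenen TPM in the DMSO libraries and 0.521 to 1.82 in the DOX libraries. The ratio of Ncstn to Psen2 was 2.94 to 5.28 in DMSO and 1.31 to 3.34 in DOX, with the groups overlapping. Psen2 made up 10.4% to 12.5% of the summed TPM of the 6 genes in DMSO and 14.4% to 32.8% in DOX. Sums over isoforms raise the Psen2 level here. With the highest-counted transcript the Psenen to Psen2 ratio was 6.16 to 6.48 in DMSO and 1.04 to 3.63 in DOX, that of Ncstn to Psen2 5.86 to 10.54 and 2.61 to 6.67, and the Psen2 share 5.53% to 7.00% and 8.21% to 20.1%. These ratios contain Psen2 and so carry the difference that chose it. Without Psen2, the 5 other genes summed to 207, 219, 162 and 202 TPM in DMSO 3, 5, 15 and 20 and to 289, 263, 218 and 244 in DOX 9, 12, 19 and 21. On these sums over isoforms the groups overlapped by the small margin between DMSO 5 and DOX 19. That overlap depends on how the Aph1a isoforms are summed.

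Co-variation was described with Pearson's r of log2(normalised count + 1) after taking each library's deviation from its group mean, over 8 libraries that share depth and size factors. The value for Psen2 with Ncstn was -0.05, with Aph1a -0.08, with Aph1b 0.50, with Aph1c 0.25 and with Psenen -0.24. In the same order, standard errors from leaving out 1 library at a time were 0.40, 0.62, 0.32, 0.20 and 1.12. From log2(TPM + 1) the values were -0.23, -0.33, 0.47, 0.13 and -0.55. Without DMSO 20 and DOX 19 the values from normalised counts were -0.13 with Ncstn and 0.18 with Aph1a. They were -0.27 with Aph1b, -0.54 with Aph1c and 0.91 with Psenen, so the order rested on those 2 libraries. The Aph1b and Aph1c value was 0.90 over 8 libraries and 0.13 without them.

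The genes most alike to Psen2 were sought among 13247 genes with a mean of at least 100 normalised counts, as a description without a test. Over the 8 libraries the highest r belonged to Tmem158 (0.96), a transmembrane protein gene induced by RAS signalling, then Snrpn and Snurf (0.95 each), which share 1 bicistronic transcript and so count the same reads. Zhx2, a zinc finger and homeobox repressor, and Grhl3, a grainyhead factor of surface epithelium, followed at 0.94 each. Because Psen2 was chosen for its difference between the groups, genes alike to it over 8 libraries are ones that differ in the same way, and Grhl3 reached the mean of 100 only through the DOX libraries. Tmem158 had 1417 to 1642 normalised counts in DMSO and 2425, 1850, 4990 and 5350 in DOX 9, 12, 19 and 21. Grhl3 had 0 to 14.9 in DMSO and 94.2, 39.8, 828 and 105 in the same DOX libraries. Zhx2 had 349.9 to 384 in DMSO and 541 to 698 in DOX.

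Ranked by deviations from the group means, the genes most alike were Krt5 (0.97), Lekr1 (0.97), Il1a (0.95), Atp6v1g1 (0.94) and Dpm2 (0.93). Taking deviations removes the difference between group means but not the spread within DOX. For Psen2 that spread was wider, with an SD of 2591 normalised counts in DOX against 233 in DMSO, so this ranking also rests on values that chose Psen2. Krt5, the keratin partner of Krt14 in basal epithelium, had 1580 normalised counts in DOX 19, 378 in DOX 21 and 0 to 5.09 in the other 6. Il1a, which encodes the cytokine interleukin-1 alpha, had 1544 in DOX 19, 349.6 in DOX 21 and 0 to 27.1 elsewhere. Lekr1 was at 770 and 659 in DOX 19 and 21 but at 385 and 358 in DOX 9 and 12, below the 618 to 714 of the DMSO libraries. Atp6v1g1, a subunit of the vacuolar proton pump, had 17234 and 17130 in DOX 19 and 21 against 11426 to 14153 in the others. In each of the 5 genes DOX 19 and DOX 21 were above DOX 9 and DOX 12, as in Psen2, a pattern that ranking by likeness to Psen2 fixes. Krt5 and Il1a reached the mean of 100 normalised counts only through DOX 19 and DOX 21.

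**Figure D4:**
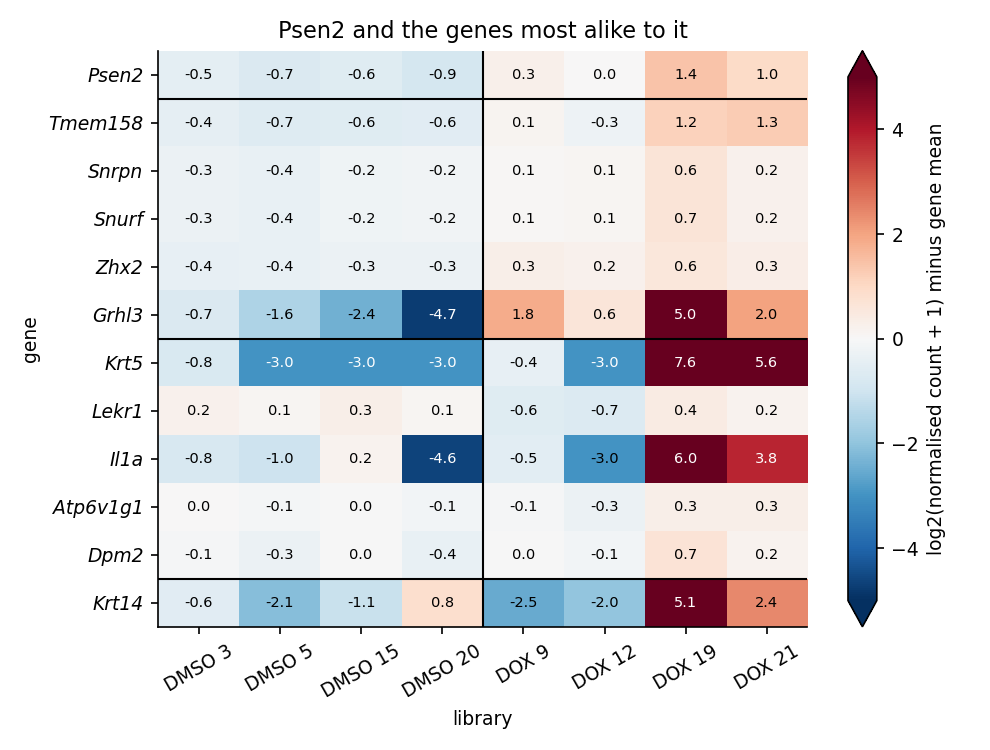
Log2(normalised count + 1) minus the gene's mean over 8 libraries, for Psen2, the 5 genes most alike over all libraries, the 5 most alike in deviations from group means, and the marker Krt14. Colour is capped at 5 units either way and each cell prints its value, and DOX 19 and DOX 21 stand highest for Psen2, Krt5, Il1a and Krt14.

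The wider pathway was examined through 5 lists holding 65 genes, of which DESeq2 tested 64 and the other tools 63. DESeq2 called 0 of them, edgeR 0 and limma-voom 0, against 0.147%, 0% and 0% of all genes. By each tool 1 gene had an unadjusted p under 0.05, and over all genes 4.67%, 3.06% and 3.07% did, so the lists were not above the background. The gene was H13, which encodes signal peptide peptidase, an intramembrane aspartyl protease of the presenilin family. H13 was at 186, 194, 202 and 275 TPM in DMSO 3, 5, 15 and 20 and at 333, 325, 291 and 295 TPM in DOX 9, 12, 19 and 21. Every DOX library was above every DMSO library, and H13 was the only 1 of the 59 list genes with a mean of at least 100 normalised counts in which this was so, a share near the 2.07% over all genes. At a log2 fold change of 0.46 ± 0.18 (SE) and a DESeq2 adjusted p of 0.664 it did not pass.

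Among the other relatives of presenilin, Sppl3, a Golgi protease that releases glycosyltransferases, was at 52.3 ± 30.5 TPM in DMSO and 54.2 ± 9.93 in DOX. Sppl2b was at 24.3 ± 13.2 and 25.0 ± 7.38 TPM. Sppl2a had a log2 fold change of -0.29 ± 0.33 (SE), and Sppl2c was listed at 0 in every library. The list median was 0.02.

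Sheddases make the stubs that gamma-secretase cuts. Adam17, the main sheddase for many growth factors, was at 157 ± 81.1 TPM in DMSO and 170 ± 14.7 in DOX, with 276 TPM in DMSO 20. Adam9 was at 86.2 ± 17.0 and 108 ± 18.2 TPM, and Rhbdf1, a rhomboid-like partner of Adam17, at 136 ± 73.5 and 131 ± 42.4 TPM. None of the 13 genes of this list passed or reached an unadjusted p under 0.05, and the median log2 fold change was 0.04.

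Substrates were the largest list, with 25 genes. App, the amyloid precursor protein, was at 1361 ± 323 TPM in DMSO and 1415 ± 393 in DOX, more RNA than the 6 subunit genes together in every library. Its relative Aplp2 was at 696 ± 240 and 780 ± 133 TPM. Cd44, a hyaluronan receptor, was at 153 ± 61.4 and 147 ± 66.4 TPM. None of the 25 passed, and log2 fold changes ran from -1.15 for Lrp2, which had at most 0.0563 TPM, to 0.52 for Efnb1, with a median of 0.10.

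Presenilin partners and trafficking factors included Rer1, a retention factor for unassembled subunits, at 207 ± 29.8 TPM in DMSO and 234 ± 16.2 in DOX. Cib1, a calcium-binding presenilin partner, was at 323 ± 51.6 and 326 ± 22.1 TPM, and Ifitm3 at 459 ± 92.6 and 542 ± 150.2 TPM. None of the 12 passed, with a median log2 fold change of 0.05.

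Downstream of Notch cleavage, Rbpj was at 36.8 ± 12.5 TPM in DMSO and 51.0 ± 21.5 in DOX. Hes1 and Hey1, target genes of Notch that encode repressors, were at 129 ± 55.2 and 105 ± 13.6 TPM and at 14.8 ± 7.52 and 14.5 ± 9.73 TPM. None of the 10 genes passed. The widest fold change was that of Hes5, with a log2 value of 1.80 ± 1.83 (SE; DESeq2 adjusted p = 0.999) on 0 to 110 normalised counts in DMSO and 11.9 to 413 in DOX, and the list median was 0.11.

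**Figure D5:**
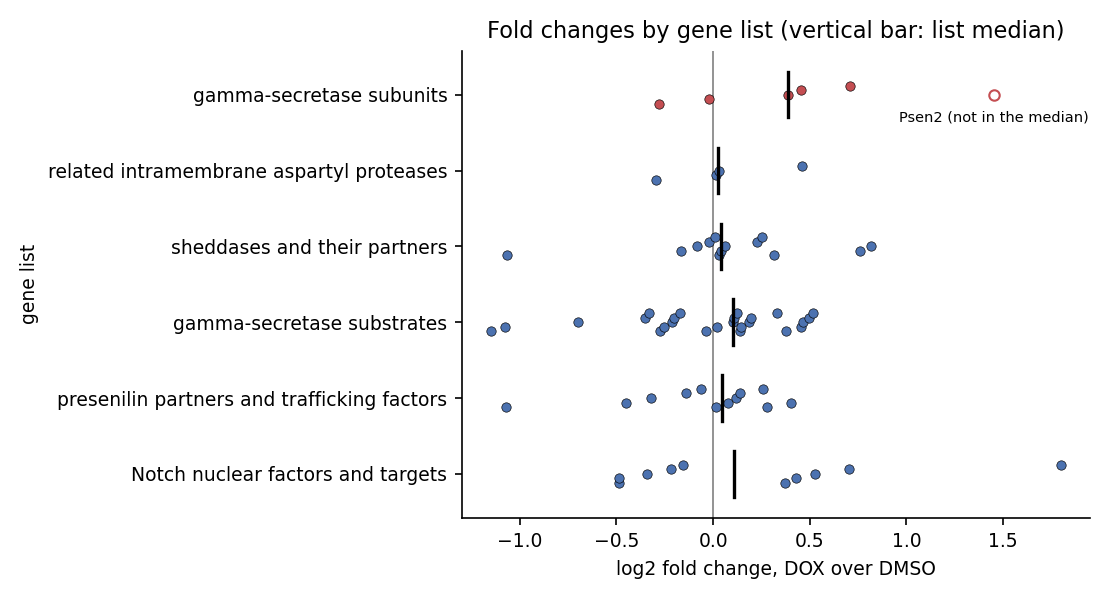
Log2 fold change (DOX over DMSO) of every tested gene in the subunit set and in the 5 pathway lists, 1 point per gene, with a vertical bar at the list median. Psen2, drawn as an open circle at 1.45, is not in its median because its values chose it; the 5 other subunit genes had a median of 0.39 and the 5 lists between 0.02 and 0.11.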

How the data were processed

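RNA was measured in 8 libraries, 4 DMSO and 4 DOX, grouped by their titles. The authors made poly-A selected SMART-Seq v4 libraries, a kit that does not mark strand, and sequenced them as 75-base paired ends. The submitters' processing notes name STAR, featureCounts and DESeq2 and the builds mm10 and GRCm38, and the versions and counting settings are not given in the sources used here. The deposited counts are whole numbers of reads per RefSeq transcript. The deposited FPKM divides these by length and by the library's total, and in the deposited TPM each library adds up to the same sum. FPKM was used to work out the transcript length behind each value. The lengths so implied differ from the GENCODE models for Aph1a (3215 and 2882 against 2863 and 1601 bases), so stretches shared with other genes are those of the GENCODE models.

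Counts and TPM were summed by symbol. The groups were compared over all genes with DESeq2 1.42.0 (R 4.3.3; Wald test, unpaired, fold changes not shrunken). Its Benjamini-Hochberg adjustment covered 17011 genes, and calls needed an adjusted p up to 0.05 together with a fold of 1.5 or more. The alternatives were edgeR 4.0.16 (quasi-likelihood), limma-voom (limma 3.58.1), count filters, other size factors, the highest-counted transcript and libraries left out. The fits were also run on simulated counts with 200 genes changed 4-fold, a larger change than the 2.74-fold of Psen2. That run does not measure how reliable the calls given here are. The genes named were the 6 members, Pkd2, in each list the 3 with the highest mean DMSO TPM plus any with an unadjusted p under 0.05, the 5 most alike to Psen2 by each measure, and its neighbours on each side. Sppl2a, Sppl2c, Lrp2, Efnb1, Hes5 and the marker genes were named after their values were seen. The members and lists were chosen with earlier results of these data known. The other presenilin gene is not reported here. Precision for single libraries is limited by counts, from 11 to 22742 reads per member transcript.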

Additional observations from a re-analysis of the deposited data

Results flagged for a closer look

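Each of the 34 genes named by the rule was examined in both groups of 4 libraries for a library far from the other 3, by Dixon's test at the 95% level. Of 68 groups, 7 had one. For independent groups of normal values, chance flags about 1 in 20, or 3.4 groups. These groups share the same libraries and some genes were chosen for likeness to Psen2, so 7 against 3.4 does not show an excess. The values are normalised counts, with the gap as a share of the group's range.

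DMSO 20 was far from the other DMSO libraries for 3 genes. It was low for Aph1a, with 357 against 2166 to 2788 (gap 0.877), and for Aph1c, with 14.1 against 205 to 261 (gap 0.915), and high for Sppl3, with 10774 against 4105 to 4776 (gap 0.843). DOX 19 was far from the other DOX libraries for 2 genes, low for Adck3 with 11.3 against 795 to 1380 (gap 0.883) and high for Sppl2b with 4424 against 2231 to 2504 (gap 0.832). DMSO 20 and DOX 19 were also the libraries with the fewest genes detected, 13243 and 13599, and the part of that in these values was not tested. DOX 9 was high for Rbpj, with 18892 against 8555 to 8880 (gap 0.953). For Krt5, DMSO 3 had 3.72 and the rest of its group had 0 (gap 1), which is a difference of a few reads.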

How the results depend on the processing

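The number of genes called, 25, was 16 with at least 10 counts asked of every library, 48 without the Cook's distance filter, 51 without DMSO 20 and DOX 19, 40 at an adjusted p of 0.1, 13 at a 2-fold minimum, 0 with edgeR and 0 with limma-voom, and ran from 14 (without DMSO 3) to 75 (without DMSO 15) when 1 library was left out. The number of members called, 1, was 0 with edgeR, limma-voom or without DMSO 20 and DOX 19, and 0 to 1 with 1 library left out (0 without DMSO 3, DMSO 5, DMSO 20, DOX 19 or DOX 21). The pathway lists stayed at 0 calls in all 17 alternatives. The Psen2 log2 difference, whose sign was fixed by its choice, ran from 1.11 to 1.64 over 19 alternatives. Over 85 fits of the other 5 members, none passed (smallest adjusted p 0.554), and the sign turned in 8: Aph1a at -0.010 (without DOX 9), Aph1b at -0.11 (without DMSO 20 and DOX 19), Aph1c at 0.059 (limma-voom), and Psenen at 0.064 (without DMSO 20 and DOX 19), 0.027 (DMSO 3), 0.0080 (DMSO 15), 0.018 (DOX 12) and 0.12 (DOX 19). With 1 library left out, Aph1a ran from -0.010 to 0.64, Aph1b from 0.21 to 1.03, Aph1c from -0.67 to -0.03 and Psenen from -0.14 to 0.12. The cause was not tested. The share of NM_001128605 in Psen2 was 50.2% by TPM and 50.1% by counts. Without DMSO 20 and DOX 19, the deviations of Psen2 correlated at -0.27 with Aph1b, -0.54 with Aph1c and 0.91 with Psenen, beside 0.50, 0.25 and -0.24. No paired analysis was possible because the library numbers in the titles are not shared between the groups. Depth limits Aph1c most, at 11 reads in DMSO 20, and sums over isoforms count shared reads more than once.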
